A study of Homo sapiens with 16 samples.

Results

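The mitochondrial respiratory chain genes on the array were 90 protein-coding genes, chosen by name from 19775 genes that own a probe set with a single gene symbol. The names begin with NDUFA, NDUFB, NDUFC, NDUFS or NDUFV (complex I), SDHA to SDHD (complex II), UQCR or CYC1 (complex III), COX4 to COX8 (complex IV) and ATP5 (complex V), and pseudogenes and antisense genes were left out. The rule took 33 genes of complex I, 3 of complex II, 7 of complex III, 17 of complex IV, 18 of complex V and 12 assembly factors whose names share these letters (NDUFAF and SDHAF genes), which help to build a complex and are not part of it. ATP5IF1, which encodes an inhibitor of the ATP synthase, and COX7A2L, which encodes a factor that joins respiratory complexes, were counted with complexes V and IV. Together the genes own 173 of the 41097 probe sets with 1 symbol, and each was read through its probe set with the highest mean signal. Of these probe sets, 39 have the suffix _s_at and 7 the suffix _x_at, which mark probes that may also bind related transcripts, so the signals of those genes may include near-identical copies.

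HCT116 and RKO are established human lines of colorectal cancer, and their RNA had been hybridized to 16 Affymetrix Human Genome U133 Plus 2.0 arrays. Each line had 1 array for each of 8 conditions, which were PJ-34, 5-aza-dC and TSA alone, each pair of drugs, the 3 drugs together and a control, and cells were treated for 3 days. PJ-34 inhibits poly(ADP-ribose) polymerases, 5-aza-dC inhibits DNA methyltransferases and TSA inhibits histone deacetylases. The doses were 0.5 µM for 5-aza-dC, 150 nM for TSA and 3 µM for PJ-34 in HCT116, while for RKO the methods give 2 µM of PJ-34 and the results text 3 µM. The series asked how transcription responds to inhibition of these enzymes alone and in combination, and a drug effect is here the mean log2 difference between 4 treated arrays of a line and the 4 that lack that drug. As each condition has 1 array, p-values measure the spread among arrays, which includes any interaction of the drugs.

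The respiratory chain passes electrons from NADH (complex I) and succinate (complex II) through complex III to oxygen at complex IV, and complex V makes ATP from the proton gradient that complexes I, III and IV build. Most subunits are encoded in the nucleus, and every complex except complex II also holds subunits encoded in mitochondrial DNA. NRF1, the GA-binding protein GABP and YY1 are known to bind promoters of many nuclear subunit genes, and several subunits of complex IV have a second gene whose transcript is found in muscle, lung or testis.

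Arrays were scaled to a common trimmed mean of about 1000 by the authors, and their median signal lay between 152 and 210. The respiratory chain genes were far above it, with a median signal between 14123 and 19211 per array, and they made up 1.70% to 2.08% of the summed signal of an array. Of 8 colon epithelium markers, KRT18 and EPCAM were high in both lines, with a median signal of 102629 and 32646 in HCT116 and of 15980 and 4053 in RKO. KRT8, KRT20 and CDH1 had medians of 24799, 1532 and 7168 in HCT116 and of 333, 107 and 11.4 in RKO. The intestinal markers CDX2, VIL1 and LGALS4 stayed at a median of 187 or less in both lines, so the markers bear out the epithelial label only in part. Markers of blood cells stayed at a median of 142 or less in both lines, and of the fibroblast markers only COL1A1 in HCT116 was above 200, with a median of 1560. In RKO, 2 arrays did not match their labels for 5-aza-dC. For 238 probe sets raised by 5-aza-dC in HCT116, the median log2 ratio to the RKO control was 0.54 in the RKO array labelled PJ-34 and 0.00 in the RKO array labelled as the pair PJ-34/5-aza-dC, against 0.55, 0.60 and 0.71 in the other RKO arrays with 5-aza-dC. Both arrays are named by their labels here, and in RKO the effects of 5-aza-dC and of PJ-34 rest on them.

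The promoters of genes that rose with TSA in HCT116 are shown first, because no other drug effect within a line passed in these genes. Their share (10.3% of the genes tested) was below that of other probe sets with a mean signal of 10000 or more (15.6%). None of the 9 genes passed in every setting tried, as given below. The 120 bases before the RefSeq start of 4 of them are given in the direction of transcription (GRCh38.p14), SDHAF2 at chr11:61430004-61430123 (plus strand), NDUFB2 at chr7:140696588-140696707 (plus strand), ATP5MC1 at chr17:48892667-48892786 (plus strand) and NDUFAF8 at chr17:81239794-81239913 (plus strand). Capitals mark the letters of the NRF1 core GCATGCGC, the GABP motif CCGGAAG and the cyclic AMP response element TGACGTCA on either strand, and in SDHAF2 a GABP match and the NRF1 match run into each other.
SDHAF2: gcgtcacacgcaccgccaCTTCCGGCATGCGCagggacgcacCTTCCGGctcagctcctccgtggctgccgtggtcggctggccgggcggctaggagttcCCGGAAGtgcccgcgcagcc
NDUFB2: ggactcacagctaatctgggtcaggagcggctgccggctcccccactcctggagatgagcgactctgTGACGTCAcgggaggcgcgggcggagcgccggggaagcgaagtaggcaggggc
ATP5MC1: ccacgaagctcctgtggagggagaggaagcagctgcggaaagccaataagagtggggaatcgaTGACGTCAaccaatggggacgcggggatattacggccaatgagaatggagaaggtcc
NDUFAF8: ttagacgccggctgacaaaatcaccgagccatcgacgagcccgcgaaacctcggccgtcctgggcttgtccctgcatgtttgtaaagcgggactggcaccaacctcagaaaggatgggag

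Of the 90 genes, 77 matched a RefSeq promoter. In the 250 bases before the start, searched on both strands, 12 of the 77 (15.6%) held the NRF1 core, against 2.81% of 27305 promoters. The GABP motif was in 18 (23.4%), against 8.82% of all promoters. The YY1 motif AAGATGG was in 4 (5.2%), against 3.77%, and the GC box GGGCGG in 42 (54.5%), against 42.31%. The cyclic AMP response element, which was searched for after the sequences had been seen, was in 4 (5.2%), against 1.77%, and these were ATP5MC1, ATP5ME, NDUFA10 and NDUFB2. Of the 9 genes that rose with TSA, 7 matched a promoter, and 1 of them held the NRF1 core, 2 the GABP motif and 2 the cyclic AMP response element. These are matches of letters only, and NDUFAF8 held no match in the sequence shown. ATP5F1E, NDUFAF4 and NDUFV2, whose promoters are not shown, held no match of the marked motifs in the 120 bases before the start.

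TSA raised respiratory chain genes in HCT116. Of 87 genes that passed the filter on low signal (100 or more in at least 4 arrays of the line), 9 rose and none fell at an adjusted p under 0.05 in limma, which is 10.3% against 4.16% of all 35373 probe sets that rose and 4.83% that fell (8.99% in either direction). Bright probe sets rose more often than dim ones. Of 1862 other probe sets with a mean signal of 10000 or more, 15.6% rose and 6.12% fell, and 60 of the 87 genes were as bright. The share of the respiratory chain genes that rose was therefore above that of all probe sets and below that of bright ones, and the part of brightness in it was not tested. The median effect of the 87 genes was 0.17 on the log2 scale, against −0.07 for all probe sets and 0.10 for the other bright ones. Of the 87 effects, 73 were above 0 (64 and a median of 0.07 after quantile normalization), as were 62.9% of the effects of the other bright probe sets.

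The genes that rose belong to complexes I and V and to the assembly factors. Arrays with TSA are given in the order TSA, PJ-34/TSA, 5-aza-dC/TSA and the 3 drugs together, and arrays without it in the order control, PJ-34, 5-aza-dC and PJ-34/5-aza-dC. The largest change among them was that of NDUFAF8, an assembly factor of complex I, with signals of 12614, 15349, 13440 and 13786 with TSA, against 6107, 6879, 6232 and 8347 without it. No array with TSA overlapped with one without, and the effect was 1.01 on the log2 scale (SE 0.10, adjusted p = 0.000219). This rests on 1 probe set, and for the mean of all 3 probe sets of the gene the effect was 0.53 (adjusted p = 0.1). NDUFAF4, also an assembly factor of complex I, had signals of 8001, 8551, 7797 and 7538 with TSA, against 5814, 5990, 4931 and 5989 without it. Its arrays did not overlap either, and the effect was 0.49 (SE 0.10, adjusted p = 0.00984). NDUFAF6, a further factor of complex I assembly, had 4544, 4066, 4035 and 4061 with TSA and 2846, 2828, 2557 and 3448 without it. The effect was 0.52 (SE 0.12, adjusted p = 0.0197), again with no overlap. SDHAF2, which is needed to attach FAD to the SDHA subunit of complex II, had 4528, 4386, 3945 and 4942 with TSA, against 2625, 2936, 2393 and 4062 without it. The PJ-34/5-aza-dC array lay within the range of the arrays with TSA, and the effect was 0.59 (SE 0.14, adjusted p = 0.0166).

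In complex I itself, 2 of 33 subunit genes passed the test. NDUFB2, an accessory subunit of the membrane arm, had 23219, 21510, 20808 and 22042 with TSA and 13944, 14472, 15487 and 17241 without it. The ranges were apart, and the effect was 0.52 (SE 0.10, adjusted p = 0.00581). Its second probe set gave 0.59 (SE 0.12, adjusted p = 0.00877). NDUFV2, a core subunit of the NADH-oxidizing module, had 16342, 15102, 14885 and 15749 with TSA, against 12544, 12605, 11229 and 12856 without it. The effect was 0.34 (SE 0.09, adjusted p = 0.038) with no overlap.

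In complex V, 3 of 17 genes passed. ATP5MC1 and ATP5MC3 are 2 of the 3 genes that encode subunit c, which forms the rotating ring of the ATP synthase in the membrane. ATP5MC1 had 18145, 15293, 13372 and 15196 with TSA, against 9397, 8545, 8941 and 13309 without it. The lowest array with TSA was thus close above the PJ-34/5-aza-dC array, and the effect was 0.64 (SE 0.14, adjusted p = 0.0139). ATP5MC3 had 46367, 41031, 41167 and 43888 with TSA and 28564, 31372, 30643 and 42581 without it. Here the PJ-34/5-aza-dC array was above 2 arrays with TSA, and the effect was 0.39 (SE 0.11, adjusted p = 0.0447). The gene of the same subunit c that did not pass was ATP5MC2, with an effect of 0.18 (SE 0.11, adjusted p = 0.348). ATP5F1E, which encodes the epsilon subunit of the catalytic part, had 34712, 32301, 31249 and 32124 with TSA, against 23910, 23457, 25769 and 29854 without it. The arrays were apart, and the effect was 0.35 (SE 0.10, adjusted p = 0.0433).

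**Figure D1:**
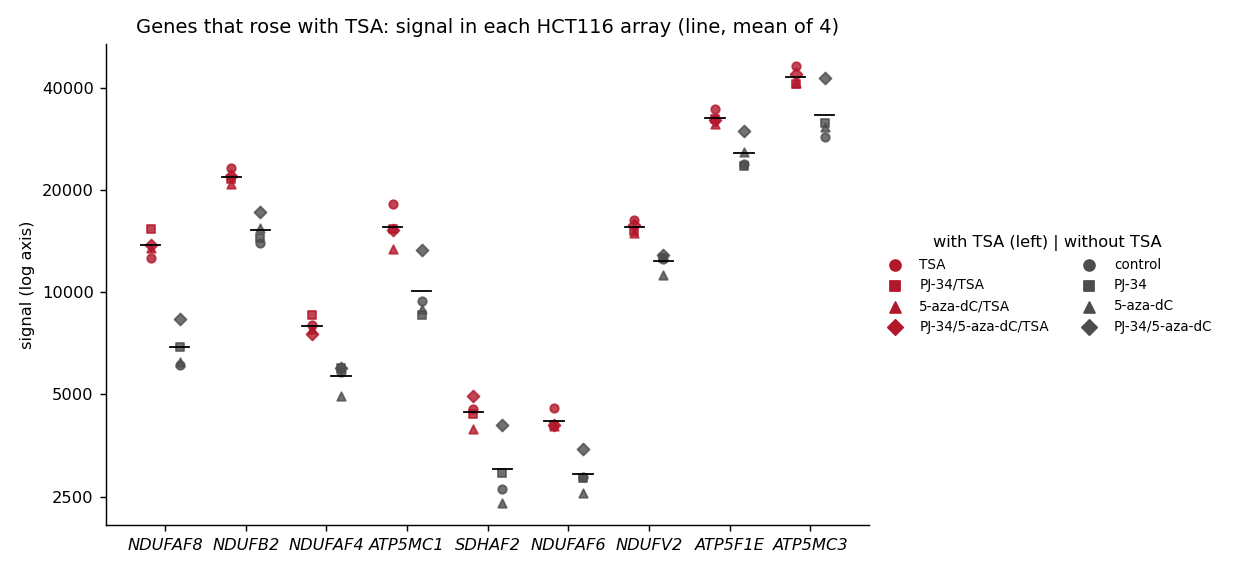
Signal (log axis) of the 9 respiratory chain genes that rose with TSA in each of the 8 HCT116 arrays, arrays with TSA in red left of arrays without TSA in grey, with the mean of 4 arrays as a line. The PJ-34/5-aza-dC array (grey diamond) is the highest array without TSA in 8 of the 9 genes.

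By complex, the median TSA effect in HCT116 was 0.19 for complex I (30 of 33 effects above 0), 0.10 for complex II (3 of 3), 0.00 for complex III (4 of 7), 0.09 for complex IV (11 of 15), 0.17 for complex V (16 of 17) and 0.33 for the assembly factors (9 of 12). No gene of complexes II, III or IV passed the test in this line, although 2 of complex III and 2 of complex IV had an unadjusted p under 0.05. COX7B, a small subunit of complex IV, had 34014, 30383, 31254 and 30428 with TSA, against 21793, 23871, 28881 and 30224 without it. Its groups did not overlap, but the effect of 0.28 (SE 0.11) had an adjusted p of 0.123. Over all 87 genes, 28 effects above 0 and 2 below 0 had an unadjusted p under 0.05. The 2 below 0 were NDUFS4, a complex I subunit, with −0.28 (SE 0.10, adjusted p = 0.094), and SDHAF4, an assembly factor of complex II, with −0.45 (SE 0.19, adjusted p = 0.177). In 10 genes every array with TSA was above every array without it (11.5%, against 6.26% of all probe sets and 18.4% of other bright ones), and in 1 gene, SDHAF4, every array was below (1.15%, against 6.95% and 7.14%).

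In HCT116, the PJ-34/5-aza-dC array resembled the TSA arrays in these genes. Its median log2 ratio to the control over the 87 genes was 0.33, against 0.40, 0.25, 0.21 and 0.33 in the arrays with TSA and 0.07 and 0.09 with PJ-34 and 5-aza-dC alone. Other bright probe sets were also up in it, at a median of 0.23, against 0.13 to 0.20 in the TSA arrays. Without this array, 31 of 87 genes rose and 1 fell, where 7.20% of all probe sets rose and 8.90% fell. Without the control, the PJ-34 or the 5-aza-dC array, 2 genes rose in each case, where 1.43%, 1.37% and 1.47% of all probe sets rose. Without the array with the 3 drugs 4 genes rose, where 2.19% of all probe sets did. NDUFAF8 and NDUFB2 were the only genes that passed whichever array was left out. With each pair of arrays that differ only in TSA as a block, which was tried after the data had been seen, 16 of 87 genes rose and none fell, where 5.95% of all probe sets rose and 7.11% fell. The 9 genes were among the 16.

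**Figure D2:**
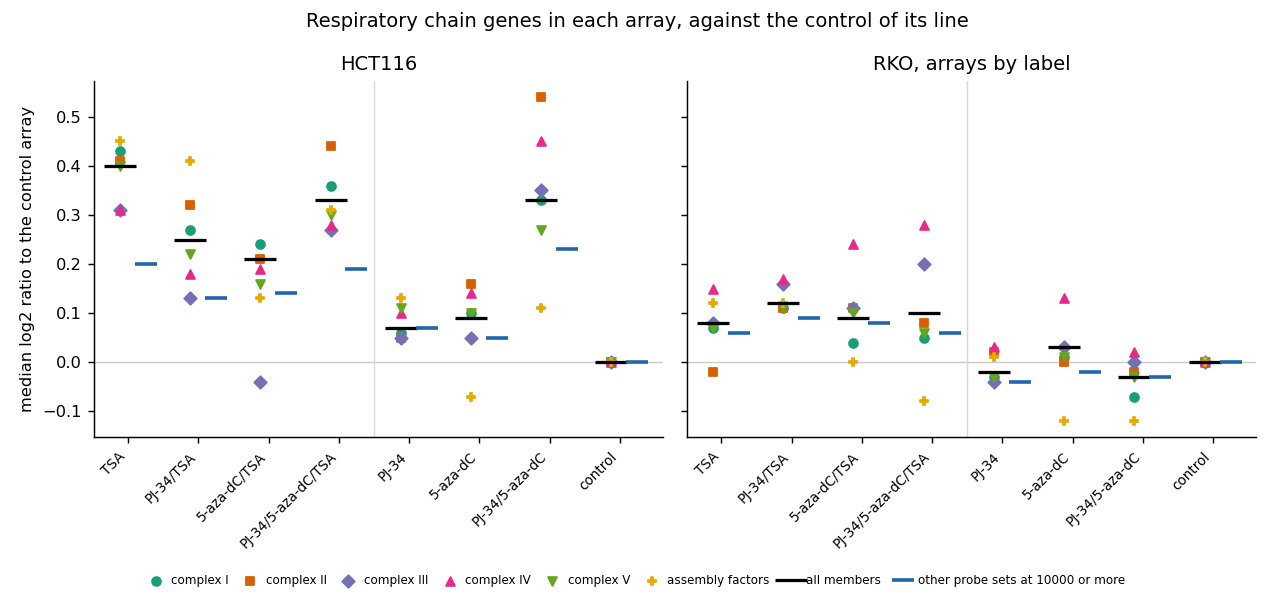
Median log2 ratio of the respiratory chain genes to the control array of the same line, by complex (symbols) and over all members (black line), with other probe sets at 10000 or more (blue line), for the 7 treated arrays and the control of each line. In HCT116, the PJ-34/5-aza-dC array (0.33) lies among the 4 arrays with TSA (0.21 to 0.40).

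In RKO no respiratory chain gene passed the test for TSA. Of 85 genes tested, 0 rose or fell at an adjusted p under 0.05 in limma, where 0.00591% of all 33862 probe sets did. At an unadjusted p under 0.05 were 21 effects above 0 and 1 below 0, against 12.3% of all probe sets in either direction. The direction was mostly upward, with 75 of 85 effects above 0 and a median of 0.11, against −0.03 for all probe sets and 0.10 for 1848 other bright ones. After quantile normalization 58 of the 85 were above 0 and the median was 0.05. In 19 genes every RKO array with TSA was above every array without it (22.4%, against 2.95% of all probe sets and 16.9% of other bright ones), and in none was it below (4.38% of all and 1.89% of bright probe sets). The changes in RKO were thus small, with a median near that of other bright probe sets, of which 77.7% had an effect above 0. They were set apart from the arrays without TSA more often than in all probe sets and, by less, than in other bright ones. The part of brightness in this was not tested.

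The smallest p in RKO was that of COX6A1, a subunit of complex IV, with signals of 60848, 64480, 71577 and 70485 with TSA, against 47856, 55839, 57995 and 56620 without it, all by label. The groups did not overlap, and the effect was 0.29 (SE 0.07, adjusted p = 0.15, unadjusted p = 0.000733). NDUFA3, an accessory subunit of complex I, had 8740, 9684, 9547 and 9344 with TSA and 7061, 7262, 7653 and 7766 without it. Its effect was 0.33 (SE 0.08, adjusted p = 0.16). CYC1, the cytochrome c1 of complex III that hands electrons to cytochrome c, had 17660, 18920, 16688 and 18623 with TSA, against 14802, 13770, 15066 and 16028 without it. Its effect was 0.27 (SE 0.08, adjusted p = 0.203), and ATP5F1C, the central stalk subunit gamma of complex V, followed with 0.21 (SE 0.06, adjusted p = 0.217). NDUFA5 of complex I was the gene below 0, with −0.35 (SE 0.13, adjusted p = 0.318). By complex, the RKO medians were 0.09 (I), 0.14 (II), 0.12 (III), 0.16 (IV), 0.11 (V) and 0.06 (assembly factors).

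**Figure D3:**
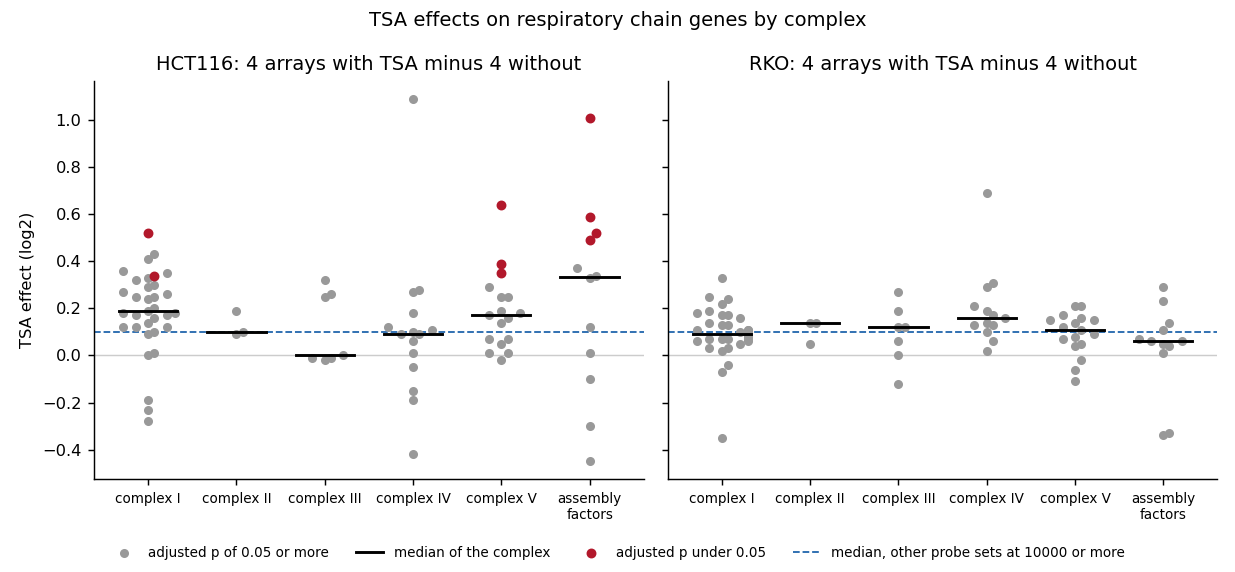
TSA effect on the log2 scale for each respiratory chain gene by complex, in HCT116 (left) and RKO (right), 4 arrays with TSA minus 4 without. Red points passed an adjusted p of 0.05, black lines are medians of a complex and the dashed line is the median of other probe sets at 10000 or more, which was 0.10 in both lines.

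The difference of the TSA effect between the lines was tested in itself, and no gene of 87 passed (0.401% of all 42119 probe sets did). In limma 11 genes, all with a larger effect in HCT116, had an unadjusted p under 0.05. Of all probe sets 12.2% had one, in either direction. The smallest adjusted p was 0.0623 for NDUFAF8 with a difference of 0.72 (SE 0.16). In RKO this gene had 6195, 8014, 7927 and 5718 with TSA, against 5770, 6265, 5475 and 5036 without it, so that the groups overlapped. NDUFAF4 followed with a difference of 0.49 (SE 0.13, adjusted p = 0.111) and ATP5PF, a peripheral stalk subunit of complex V, with 0.31 (SE 0.11, adjusted p = 0.255). By complex the median difference was 0.28 for the assembly factors and between −0.07 and 0.11 for complexes I to V. The larger count in HCT116 is thus not shown to be a larger effect on any single gene.

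PJ-34 did not change a respiratory chain gene in either line at an adjusted p under 0.05, where 0.0% of all probe sets passed. In HCT116 2 of 87 genes had an unadjusted p under 0.05 in limma, which were NDUFAF8 with 0.23 (SE 0.10) and SDHAF2 with 0.30 (SE 0.14), both with an adjusted p of 0.981. In RKO it was COX4I2 alone, with −1.07 (SE 0.48, adjusted p = 1.0). Of all probe sets, 3.74% in HCT116 and 2.64% in RKO had an unadjusted p under 0.05. The median effect was 0.10 in HCT116, where other bright probe sets had 0.06.

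With 5-aza-dC, no gene of 87 passed in HCT116, against 0.744% of all probe sets, and no gene of 85 in RKO, against 0.0%. At an unadjusted p under 0.05 in limma, 4 genes in HCT116 had an effect above 0 and 1 below, where 10.6% of all probe sets reached this level. COX7B2, the testis isoform of a complex IV subunit, had signals of 143, 212, 275 and 176 in the arrays with 5-aza-dC (alone, with PJ-34, with TSA and with both), against 35.8, 128, 62.0 and 57.0 in the control, PJ-34, TSA and PJ-34/TSA arrays. The groups did not overlap, and the effect was 1.51 (SE 0.49, adjusted p = 0.246). This dim gene passed the filter on low signal through its arrays with 5-aza-dC, since only the PJ-34 array (128) was bright enough among the others. The control (35.8) was raised to a floor of 50 before log2 was taken. The filter thus favours such a pattern, and the size of the effect depends on the floor. SDHA, the FAD-binding subunit of complex II, had 8698, 11762, 8987 and 10802 with 5-aza-dC, against 6667, 8083, 8883 and 8345 without it. The TSA array lay within the range of the arrays with 5-aza-dC, and the effect was 0.33 (SE 0.11, adjusted p = 0.277). NDUFAF2, an assembly factor of complex I, was lower, with an effect of −0.30 (SE 0.11, adjusted p = 0.32), and NDUFA11 and NDUFA3 had effects of 0.27 (SE 0.12, adjusted p = 0.44) and 0.30 (SE 0.14, adjusted p = 0.454). The range of medians by complex was −0.04 (assembly factors) to 0.13 (complex IV), against −0.01 for all probe sets.

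Of all probe sets in RKO, 5.19% had an unadjusted p under 0.05 for 5-aza-dC. Among the respiratory chain genes, 4 had an effect above 0 and 2 below 0 at this level. They were led by NDUFS6, a complex I subunit, with −0.20 (SE 0.07) and COX4I2 with 1.23 (SE 0.48), each with an adjusted p of 0.882 in limma. Both rest on the arrays whose labels are in doubt. No difference of the 5-aza-dC effect between the lines passed (0.0309% of all probe sets did), nor any of the PJ-34 effect (0.0%). NDUFS6 had the only unadjusted p under 0.05, with a difference of 0.32 (SE 0.14, adjusted p = 0.656) for 5-aza-dC. Of all probe sets, 7.4% had one for 5-aza-dC and 3.51% for PJ-34.

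No interaction of 2 drugs, averaged over both lines, passed in a respiratory chain gene or in any other probe set (0.0% for each pair). These terms include the 2 RKO arrays whose labels are in doubt, and no interaction was tested within a line. For PJ-34 by 5-aza-dC, 7 genes had an unadjusted p under 0.05 in limma, for 5-aza-dC by TSA also 7 and for PJ-34 by TSA none. Of all probe sets 6.82%, 4.48% and 3.1% did, in the same order. COX4I2 led with an interaction of PJ-34 by 5-aza-dC of 2.74 (SE 0.48, adjusted p = 0.399). Its signal was 20.2 in the HCT116 array with PJ-34 and 13.8 in the RKO array labelled PJ-34, both below the floor of 50 that was set before log2 was taken, and 93.3 to 514 in the other 14 arrays. ATP5MC1 followed with 0.47 (SE 0.16, adjusted p = 0.713). For 5-aza-dC by TSA the smallest p was that of ATP5ME, a subunit of the membrane part of complex V, with −0.40 (SE 0.11, adjusted p = 0.981).

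The pairs of isoforms of complex IV were read separately, because most second genes were dim in these cells. COX4I1, COX6A1, COX6B1, COX7A2, COX7B and COX8A, the forms found in most tissues, had median signals of 65846, 61742, 33815, 49358, 30304 and 34642 in HCT116 and of 48370, 59421, 24297, 35271, 30226 and 35483 in RKO. Their partners COX4I2 (lung), COX6A2 (heart and muscle), COX6B2 (testis), COX7A1 (heart and muscle), COX7B2 (testis) and COX8C (testis) did not exceed 708 in any array. Whether signals this low lie above the background of the array was not tested, and levels of different probe sets are not on the same scale.

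In HCT116, 2 of these dim genes were highest in the arrays with 5-aza-dC but no TSA. COX7A1 had 202 with 5-aza-dC and 267 with PJ-34/5-aza-dC, against 28.5 and 33.5 with 5-aza-dC/TSA and the 3 drugs, and 11.3 to 28.3 in the 4 arrays without 5-aza-dC. COX8C had 486 and 708 in the same 2 arrays, against 163 and 64.6 with 5-aza-dC and TSA, and 8.13 to 96.9 without 5-aza-dC. Neither gene reached 100 in 4 arrays, so neither was tested, and in RKO COX7A1 did not exceed 36.1 nor COX8C 83.0. For COX7B2, the RKO signals were 138 in the array labelled PJ-34, 86.9 with 5-aza-dC, 170 with 5-aza-dC/TSA and 205 with the 3 drugs, and 72.4 where the label reads PJ-34/5-aza-dC, against 54.3, 49.9 and 47.4 in the control, TSA and PJ-34/TSA arrays. By label, the RKO PJ-34 array was thus the highest array without 5-aza-dC. The same held for the PJ-34 array of HCT116, so this dim gene is no check of the labels.

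The 120 bases before the RefSeq start of COX7B2 (chr4:46909246-46909365, minus strand) and COX8C (chr14:93347062-93347181, plus strand) are shown. In HCT116 both of these dim genes had their highest signals in arrays with 5-aza-dC, and COX7A1 matched no promoter. The drug acts on methylation of CpG dinucleotides, but whether CpG in these promoters had a part in the signals was not tested. Capitals mark each CpG.
COX7B2: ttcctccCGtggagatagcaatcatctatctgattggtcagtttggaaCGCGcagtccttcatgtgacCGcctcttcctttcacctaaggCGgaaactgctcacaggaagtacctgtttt
COX8C: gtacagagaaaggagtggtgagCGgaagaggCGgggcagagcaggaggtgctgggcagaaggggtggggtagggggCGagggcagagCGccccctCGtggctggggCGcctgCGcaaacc
In the 250 bases before the start, COX7B2 had 5 CpG and COX8C 8, against 13 in COX7B and 16 in COX8A and a median of 11 over all promoters. COX6B2 had 26 and COX6A2 had 1. Of the other common forms, COX4I1 had 34, COX6A1 19, COX6B1 14 and COX7A2 0. Methylation was not measured on these arrays.

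**Figure D4:**
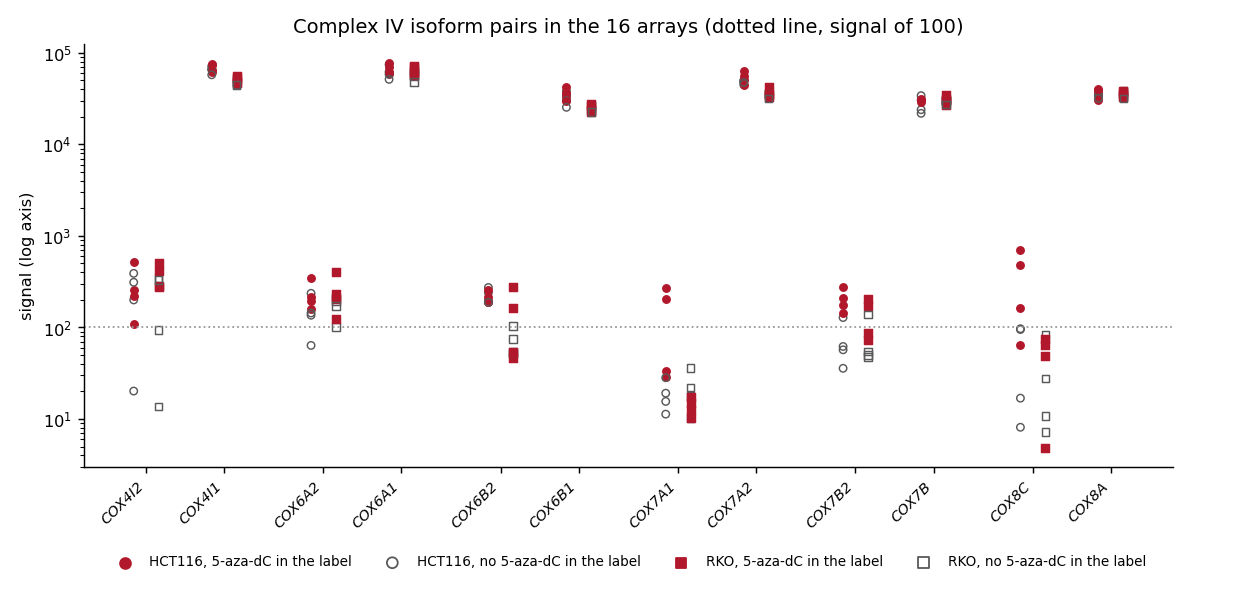
Signal (log axis) of 6 pairs of complex IV isoforms in all 16 arrays, the restricted isoform left of the common one, with HCT116 as circles and RKO as squares. Filled red symbols are arrays with 5-aza-dC in the label, and the 2 highest COX8C circles (486 and 708) are the HCT116 arrays with 5-aza-dC and no TSA.

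The lines differed in many respiratory chain genes, but not more often than bright probe sets as a whole. The methods give McCoy's or Dulbecco's modified Eagle's medium for HCT116 and only the latter for RKO. They do not say which medium the HCT116 arrays had, so line and medium cannot be told apart. The p-values measure the spread among differently treated arrays of each line. Over the 8 conditions, 36 of 87 genes (41.4%) were higher in HCT116 than in RKO and 23 (26.4%) were lower at an adjusted p under 0.05 in limma. Of all 42119 probe sets 21.3% were higher and 23.0% lower (44.3% in either direction), and of 1824 other bright probe sets 41.3% were higher and 31.0% lower. In 18 genes every HCT116 array was above every RKO array (20.7%, against 9.85% of all and 20.4% of bright probe sets), and in 6 every one was below (6.9%, against 9.85% and 16.8%).

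The complexes differed in their balance. Higher and lower genes were 10 and 9 in complex I, 1 and 0 in complex II, 5 and 1 in complex III, 7 and 1 in complex IV, 10 and 4 in complex V, and 3 and 8 among the assembly factors. The median difference was 0.04 for complex I, 0.17 for complex II, 0.28 for complex III, 0.17 for complex IV, 0.28 for complex V and −0.42 for the assembly factors. These are descriptions, and no test of the complexes against each other was made.

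In complex I, NDUFB10, an accessory subunit, had a lowest, median and highest signal of 21905, 28593 and 37840 in HCT116, against 12476, 15057 and 15739 in RKO. No arrays overlapped, and the difference was 0.95 (SE 0.08, adjusted p = 1.42e-08). NDUFS4, also an accessory subunit, was higher by 0.91 (SE 0.08, adjusted p = 1.47e-08), with 7126 to 10160 in HCT116 and 3636 to 5086 in RKO. NDUFB2, the gene that rose with TSA in HCT116, was lower there, with 13944, 19025 and 23219 in HCT116, against 27745, 30714 and 34891 in RKO. The difference was −0.76 (SE 0.06, adjusted p = 2.23e-09), so the HCT116 arrays with TSA, at 23219 or less, stayed below the lowest RKO array. NDUFB3, also of the membrane arm, was lower by a difference of −0.44 (SE 0.09, adjusted p = 0.000594).

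In complex II, SDHD, which anchors the complex in the membrane, had 11778 to 15088 in HCT116, against 7826 to 9766 in RKO, a difference of 0.63 (SE 0.06, adjusted p = 8.77e-08). SDHA and SDHC had differences of 0.17 (SE 0.07, adjusted p = 0.0699) and 0.07 (SE 0.07, adjusted p = 0.476). In complex III, UQCRC2, a core protein, had 23022, 24314 and 28388 in HCT116, against 10102, 11532 and 13729 in RKO. It had the smallest p of all members, with a difference of 1.14 (SE 0.07, adjusted p = 1.64e-10). CYC1 was higher by 0.78 (SE 0.08, adjusted p = 7.72e-08), with 22575 to 36352 against 13770 to 18920. UQCRQ, a small subunit of the same complex, was lower, with 25150 to 36675 in HCT116, against 36974 to 44182 in RKO and a difference of −0.37 (SE 0.06, adjusted p = 9.44e-05).

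In complex IV, COX5B, a subunit that binds zinc, had 27358 to 40037 in HCT116, against 19018 to 22426 in RKO, a difference of 0.56 (SE 0.07, adjusted p = 1.76e-06). COX6B2, the testis isoform named above, had the largest difference, 1.35 (SE 0.32, adjusted p = 0.00171), with 188 to 273 in HCT116 and 46.0 to 278 in RKO. The RKO arrays overlapped with HCT116 only through 1 array, labelled PJ-34/5-aza-dC, at 278, and 4 RKO arrays lay close to the floor. COX6C was the only gene of complex IV that was lower, by a difference of −0.24 (SE 0.07, adjusted p = 0.0064), with overlap of the lines.

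In complex V, ATP5MC1 was higher by 0.85 (SE 0.10, adjusted p = 6.28e-07), with 8545 to 18145 in HCT116, against 5623 to 7536 in RKO. ATP5PD, a peripheral stalk subunit, had 48060 to 68226 in HCT116, against 29886 to 36298 in RKO, a difference of 0.80 (SE 0.06, adjusted p = 6.02e-09). ATP5MJ, a small membrane subunit, and ATP5MC2 were lower, with differences of −0.27 (SE 0.07, adjusted p = 0.00446) and −0.23 (SE 0.07, adjusted p = 0.00799). For the mean of its probe sets, the difference of ATP5MC2 was −0.12 and did not pass (adjusted p = 0.183).

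The assembly factors were lower in HCT116 in 8 of 12 cases. NDUFAF1 had 2422, 3031 and 3943 in HCT116, against 5329, 6369 and 7892 in RKO, a difference of −1.01 (SE 0.08, adjusted p = 5.47e-09). NDUFAF2 had 3695, 4432 and 5387 in HCT116, against 8167, 8703 and 9808 in RKO, a difference of −0.99 (SE 0.06, adjusted p = 1.93e-10). Both act in the assembly of complex I, and neither had overlapping arrays. NDUFAF8 and SDHAF4 went the other way, with 0.64 (SE 0.08, adjusted p = 2.38e-06) and 0.76 (SE 0.16, adjusted p = 0.000503). The difference of NDUFAF8 includes its rise with TSA, and in the control arrays it had 6107 in HCT116 and 5770 in RKO.

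**Figure D5:**
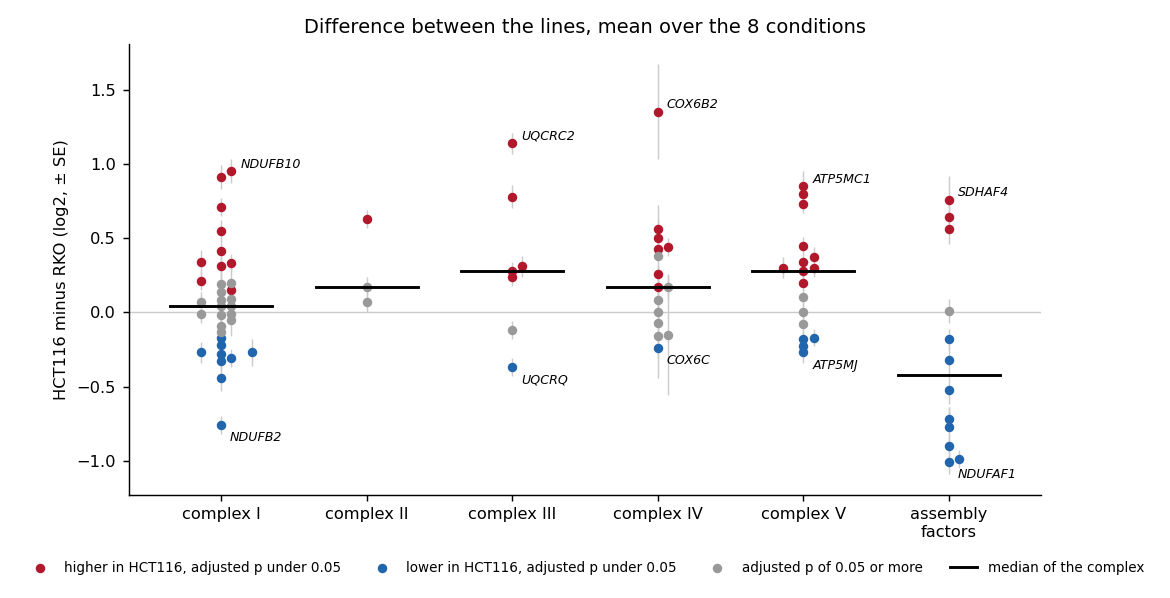
Difference between HCT116 and RKO on the log2 scale (points, with SE) for each respiratory chain gene by complex, averaged over the 8 conditions. Red points are higher and blue points lower in HCT116 at an adjusted p under 0.05, and the black line is the median, which was lowest for the assembly factors (−0.42).

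Where a gene has several probe sets, they did not always go the same way. Of 33 members that differed between the lines and have several tested probe sets, all probe sets had the same direction in 22, and in 5 another probe set passed the test in the opposite direction. These were ATP5IF1, COX5A, NDUFA10, NDUFA11 and UQCR10, in which the opposite probe sets were much dimmer, such as 742 for COX5A against 30981 for the probe set used. The line difference of these 5 genes therefore depends on the probe set. For TSA in HCT116, all 6 of the called genes with several probe sets had the same direction in each. In the fit of the mean of a gene's probe sets, however, NDUFAF8, NDUFAF4, NDUFAF6, ATP5F1E and ATP5MC3 did not pass. COX4I1 and UQCR10 passed in that fit only for TSA in HCT116 and not in the fit of single probe sets.

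By the mean signal over all 16 arrays, the brightest probe sets of subunit genes were those of NDUFB9 (I), SDHD (II), UQCRB (III), COX6A1 (IV) and ATP5F1A (V), which is no order of transcript levels, since signals of different probe sets are not on 1 scale. In HCT116 alone, COX4I1 had a higher median signal than COX6A1. NDUFB9 had a median signal of 61522 in HCT116 and 66540 in RKO, and SDHD 13483 and 8571. UQCRB had 42108 in HCT116 and 47132 in RKO, COX6A1 61742 and 59421, and ATP5F1A 66919 and 55568. ATP5F1A encodes the alpha subunit of the catalytic part. ATP5MF, of the membrane part, had a signal of 77.1 or less in every array and was not tested.

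Other genes of mitochondrial energy supply were read from lists. With TSA in HCT116, 30 of 75 genes of the mitochondrial ribosome rose and none fell, with a median effect of 0.36. That is 40.0% of the list, against 4.16% of all probe sets and 15.6% of other bright ones. The other 5 lists had shares of 0.0% to 19.4%. The list counts were not repeated with an array left out or under the other alternative settings. MRPL49 rose by 0.91 (SE 0.13, adjusted p = 0.0012) and MRPL32 by 0.64 (SE 0.09, adjusted p = 0.00164) in limma. Of 11 further assembly factors of complex I, 2 rose, TMEM126A by 0.75 (SE 0.10, adjusted p = 0.00108) and TMEM126B by 0.37 (SE 0.10, adjusted p = 0.0355). Of 31 assembly factors of complexes III to V, 6 rose, led by COA7 with 0.73 (SE 0.14, adjusted p = 0.00606) and UQCC1 with 0.51 (SE 0.12, adjusted p = 0.0204). Of 17 regulators of mitochondrial biogenesis, 2 rose, which were the transcription factor gene TFB2M with 0.61 (SE 0.11, adjusted p = 0.00411) and the mitochondrial DNA helicase gene TWNK with 0.58 (SE 0.12, adjusted p = 0.0102). The list of electron and adenine nucleotide carriers (19 genes tested) also holds genes of ubiquinone synthesis, VDAC channel genes and the member ATP5IF1. In it 3 genes rose, PDSS1, an enzyme of ubiquinone synthesis, with 0.60 (SE 0.13, adjusted p = 0.0136), VDAC3 with 0.49 (SE 0.11, adjusted p = 0.0183) and COQ2 with 0.48 (SE 0.13, adjusted p = 0.0368). CYCS (0.22, adjusted p = 0.14), SLC25A5 (0.05, adjusted p = 0.814) and SLC25A4 (0.01, adjusted p = 0.966) did not pass. None of 15 citric acid cycle genes passed, although DLAT had 0.32 (SE 0.10, adjusted p = 0.0671). No listed gene fell.

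In RKO no gene of any list passed for TSA, and the median effect lay between −0.05 and 0.11. The difference of the TSA effect between the lines passed in 1 listed gene, one of the 11 further assembly factors of complex I, and in none of the 75 genes of the mitochondrial ribosome, where its median was 0.26. Between the lines, 32 of the 75 ribosome genes (42.7%) were higher in HCT116 and 23 (30.7%) lower, against 21.3% and 23.0% of all probe sets and 41.3% and 31.0% of other bright ones. Higher and lower genes were 12 and 11 of 32 assembly factors of complexes III to V and 2 and 5 of 11 further assembly factors of complex I. They were 11 and 5 of 19 genes of the carrier list, 5 and 5 of 17 regulators, and 5 and 4 of 15 citric acid cycle genes. SURF1, an assembly factor of complex IV, was higher in HCT116 by 1.48 (SE 0.08, adjusted p = 2.43e-11), and the cytochrome c gene CYCS by 0.57 (SE 0.05, adjusted p = 4.05e-08). TEFM, the elongation factor of mitochondrial transcription, was lower, with a difference of −1.38 (SE 0.08, adjusted p = 5.67e-11). The 13 genes of the mitochondrial genome were not analysed here.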

How the data were processed

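RNA of 16 samples had been hybridized to 1 array each. The deposited values are linear signal intensities, which the authors computed with GCOS and scaled to the same trimmed mean on every array. Genes were named from the platform annotation. A floor of 50 was applied before the log2 transformation. Probe sets at 100 or more in at least 4 arrays were kept (35373 in HCT116, 33862 in RKO, 42119 for both lines), 62 control probe sets were left out, and all were fitted with limma 3.58.1 in R 4.3.3 (eBayes with trend). Within a line the model had a term per drug. Models of both lines added line, line by drug and, for interactions, drug by drug terms. There were 13 comparisons, and p was adjusted over all probe sets of each (Benjamini-Hochberg) at 0.05. The fits were tested on simulated data. The number of arrays limits the precision.

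Members, lists and tests were chosen with earlier results of these data known. Named genes are those with the smallest adjusted p per drug and line, the largest line differences per complex, the isoform pairs, the brightest subunits and 2 genes per list. The other genes that rose with TSA, COX7B and SDHAF4 were added after their values were seen. So were SLC25A4, SLC25A5 and the genes whose probe sets oppose each other. Sequences are from RefSeq (GRCh38.p14). Alternatives were another floor, no filter, quantile normalization, the mean of a gene's probe sets, all arrays in 1 fit, leaving out arrays and, added after seeing the data, matched arrays as a block.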

Additional observations from a re-analysis of the deposited data

Results flagged for a closer look

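In 56 groups of 4 or 8 arrays, taken for the genes named above, 3 had 1 array far from the others, and chance gives about 1 in 20 groups. NDUFAF4 had a signal of 4931 in the HCT116 array with 5-aza-dC, against 5814 to 5990 in the other 3 arrays without TSA. NDUFAF6 had 4544 in the HCT116 array with TSA alone, against 4035 to 4066 in the other 3 arrays with TSA. NDUFB10 had 12476 in the RKO array with TSA, against 14172 to 15739 in the other RKO arrays.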

How the results depend on the processing

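The count of respiratory chain genes changed by TSA in HCT116 (9) depended on the processing. It was 1 with no filter on low signal, where 0.304% of all probe sets rose and 0.287% fell. With all 16 arrays in 1 fit it was 16, where 4.64% rose and 4.67% fell. When 1 array was left out it was 2 to 32, and 1.37% to 7.20% of all probe sets rose. The highest count was without PJ-34/5-aza-dC. With a floor of 20 the count was 9, where 4.07% of all probe sets rose. It was 6 with the mean of a gene's probe sets, where 4.01% of all genes rose. With quantile normalization it was 9 (8 higher and NDUFS4 lower with −0.35), where 4.56% of all probe sets rose and 4.09% fell. None of the 9 genes passed in every setting. For 5-aza-dC in HCT116 the count was 0 to 4 without 1 array, the 4 (SDHA, NDUFA3, NDUFA5 and NDUFA11) without the TSA array. For 5-aza-dC in RKO it was 1 (NDUFB9, 0.26) without the pair of RKO arrays in doubt. For the difference of the TSA effect between the lines it was 0 to 3 without 1 array, the 3 (NDUFAF8, NDUFAF4 and ATP5MC1) without PJ-34/5-aza-dC of HCT116 and 1 (NDUFAF8) without 5-aza-dC/TSA of RKO. The difference between the lines (59) was 52 to 61 in all settings, with 27 higher and 26 lower for the mean of probe sets, and 18 of its 19 named genes passed throughout (ATP5MC2 did not for the mean of probe sets). The cause of these shifts was not tested. By replicate number, no paired analysis was possible because every array has the number 1. Arrays that differ only in 1 drug or only in the line form pairs, and with these as a block, added after seeing the data, the count for TSA in HCT116 was 16, for the difference between the lines 54 and for the other drug effects 0. Whether the signals of the dim isoforms lie above background was not tested, which limits what they show.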
